A study of Homo sapiens with 16 samples.

Results

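The CoREST complex joins a histone demethylase and a histone deacetylase on one scaffold, and the dual inhibitor corin was made to act on it. The RNA of 10 genes was followed here: the demethylases *KDM1A* and *KDM1B*, the scaffolds *RCOR1*, *RCOR2* and *RCOR3*, the deacetylases *HDAC1* and *HDAC2*, the accessory subunits *PHF21A* and *HMG20B*, and *REST*, which brings the complex to DNA. The genes were taken by symbol from 34228 genes in the count table, with earlier results of these data known. All 10 passed the filter on low counts in both cell lines, *RCOR2* in 451Lu-R through its corin libraries alone, so that its rise there follows in part from the filter. After 24 h of corin, *KDM1B*, *RCOR1* and *RCOR2* rose in both lines, *KDM1A* and *HDAC2* rose to a lesser extent in both, and *REST* and *HMG20B* fell in both.

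RNA-Seq was compared in 2 human melanoma cell lines with acquired resistance to the BRAF inhibitor PLX4032 (vemurafenib), 451Lu-R and 1205Lu-R. Both are BRAFi-R lines that were selected in rising doses of PLX4032 and kept in it, so each phenotype is represented by 1 resistant line. Each line received 2.5 µM corin or its solvent DMSO for 24 h, with 2 libraries in each of the 4 groups. The labels do not say whether the 2 libraries of a group came from separate cultures, so the spread behind each test may be technical. The other 8 samples of the series, which received PLX4032 with or without corin, were not analysed here.

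KDM1A, also called LSD1, removes methyl groups from lysine 4 of histone H3, a mark of active genes, and KDM1B (LSD2) has the same chemistry but lacks the region through which KDM1A binds the RCOR scaffolds. In CoREST, an RCOR protein holds KDM1A next to HDAC1 or HDAC2, so that loss of methyl and acetyl marks is coupled. REST binds the RE1 element of neuronal genes and recruits CoREST through its C-terminal end, while SIN3 is recruited through its N-terminal end. SNAIL, GFI1 and INSM1 proteins carry a SNAG sequence that resembles the tail of histone H3 and docks in the active site of KDM1A.

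The libraries held 9516687 to 11797788 estimated counts each. The line labels matched the markers: the summed level of 10 melanocyte lineage genes was 13200 CPM (counts per 1000000 counts of the library) in both DMSO libraries of 451Lu-R and 55.7 to 57.9 CPM in those of 1205Lu-R, where *SOX10*, *TYR* and *TYRP1* had 0 counts. *AXL* and *WNT5A* together reached 1192 to 1208 CPM in the DMSO libraries of 1205Lu-R and 2.85 to 3.50 CPM in those of 451Lu-R. With corin, the melanocyte genes summed to 12360 to 12370 CPM in 451Lu-R and to 66.9 to 73.5 CPM in 1205Lu-R. The pair *AXL* and *WNT5A* summed to 8.17 to 8.26 and 497.5 to 505.4 CPM. The melanocyte sum in 451Lu-R was mostly *PMEL* (mean 8031 CPM with DMSO, 7482 CPM with corin). It hid opposed shifts, as 7 of the 10 genes fell and 3 rose. *MITF* went from 754.7 to 296.8 CPM and *SOX10* from 721.7 to 242.2 CPM, while *DCT* rose from 1587 to 2770 CPM. Of 7 measured markers of blood, endothelium, keratinocytes and liver, 4 had 0 counts with DMSO in 451Lu-R and 5 in 1205Lu-R; their sum went from 1.66 to 1.67 CPM with DMSO to 13.6 to 13.8 CPM with corin in 451Lu-R, and from 11.1 to 11.2 to between 23.5 and 27.1 CPM in 1205Lu-R. The part of these shifts in the values that follow was not tested.

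Corin changed most genes in both lines, which sets the scale for the members. In 451Lu-R, 41.3% of 14530 tested genes rose and 38.6% fell at an adjusted p under 0.05 (edgeR's quasi-likelihood test with Benjamini-Hochberg adjustment, used throughout), against 7 and 2 of the 10 members. In 1205Lu-R, 40.4% of 14563 tested genes rose and 37.8% fell, against 5 and 2 members. Where a change of at least 2-fold was also required, 22.2% of genes rose and 13.3% fell in 451Lu-R, against 2 members (*KDM1B* and *RCOR2*) and 0 members. In 1205Lu-R the corresponding shares were 22.0% and 9.80%, against 2 members that rose, again *KDM1B* and *RCOR2*, and 1 that fell, *HMG20B*. The median log2 fold change of the members was 0.46 in 451Lu-R and 0.25 in 1205Lu-R, beside 0.03 and 0.03 over all genes tested. Most members therefore moved less than many other genes did: the change of *KDM1A* was exceeded in size by that of 69.2% of tested genes in 451Lu-R, and by that of 61.7% in 1205Lu-R.

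**Figure D1:**
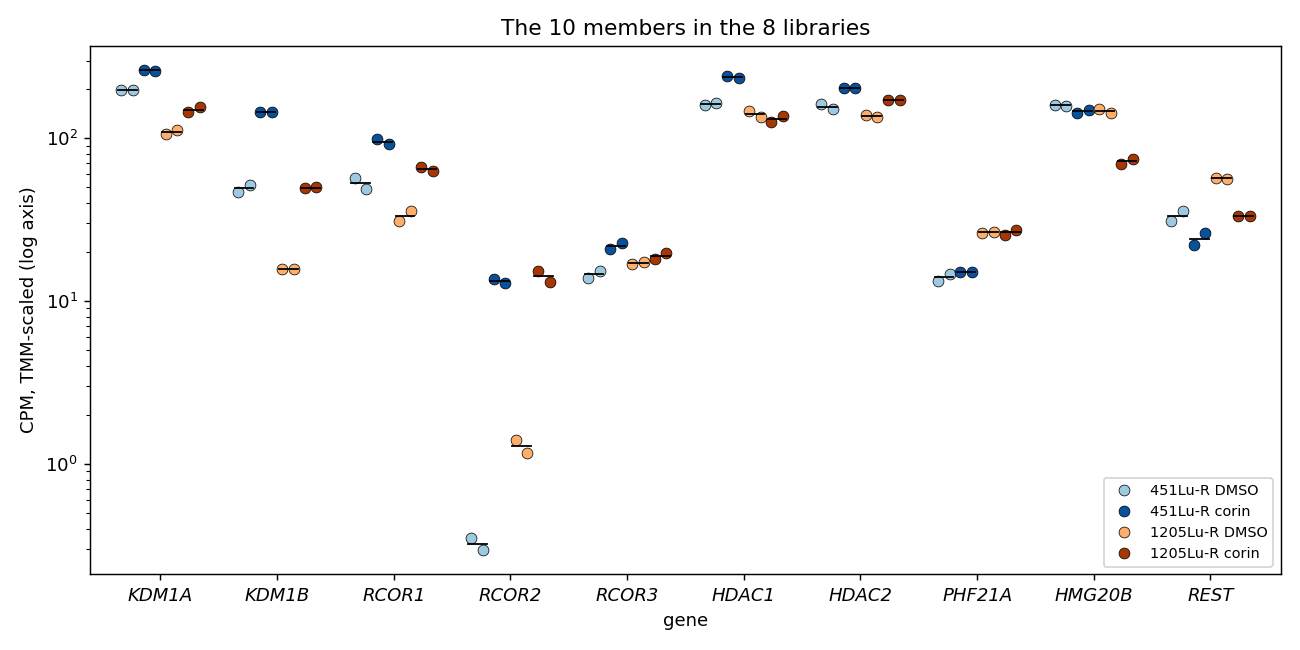
Expression of the 10 members in the 8 libraries. Each point is 1 library, in CPM scaled by TMM on a log axis, and each line is the mean of the 2 libraries of a group. RCOR2 stood lowest with DMSO, at 0.30 to 0.35 CPM in 451Lu-R and 1.17 to 1.41 CPM in 1205Lu-R, and reached 12.9 to 15.4 CPM in the 4 corin libraries.

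The bases upstream of 4 members are shown because *RCOR1* and *KDM1B* rose in both lines, *REST* fell in both, and *HDAC1* changed in 451Lu-R only by its own test. They come from RefSeq (GRCh38.p14), all on the plus strand, ending where the first annotated exon of GENCODE 44 begins. Capitals mark the GC box, GGGCGG read on either strand, a short element found before many broadly expressed genes.
RCOR1 (chr14:102592399-102592648): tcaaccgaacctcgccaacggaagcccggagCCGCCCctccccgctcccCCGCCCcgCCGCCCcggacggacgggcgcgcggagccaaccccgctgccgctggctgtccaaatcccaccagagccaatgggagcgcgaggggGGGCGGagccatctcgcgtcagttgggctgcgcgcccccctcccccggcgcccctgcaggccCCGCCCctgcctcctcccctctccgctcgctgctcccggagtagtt
KDM1B (chr6:18155172-18155328): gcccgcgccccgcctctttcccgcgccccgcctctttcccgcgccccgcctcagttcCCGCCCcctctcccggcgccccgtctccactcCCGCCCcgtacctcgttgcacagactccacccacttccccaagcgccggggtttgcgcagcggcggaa
REST (chr4:56907650-56907875): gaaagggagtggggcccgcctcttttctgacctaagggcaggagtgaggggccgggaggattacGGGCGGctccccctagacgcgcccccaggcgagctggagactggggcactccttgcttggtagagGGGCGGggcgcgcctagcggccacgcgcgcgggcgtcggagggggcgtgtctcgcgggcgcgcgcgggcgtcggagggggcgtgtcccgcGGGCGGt
HDAC1 (chr1:32291833-32292082): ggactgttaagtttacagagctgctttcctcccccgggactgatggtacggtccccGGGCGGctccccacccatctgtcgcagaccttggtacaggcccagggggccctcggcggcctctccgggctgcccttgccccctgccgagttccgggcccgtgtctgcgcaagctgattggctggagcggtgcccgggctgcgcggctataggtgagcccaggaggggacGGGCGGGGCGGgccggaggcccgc
The RefSeq table held 13 windows of 250 bases for 9 of the members, and a GC box lay in 11 of these 13, beside 42.6% of all 35116 windows. The letters CCAAT lay in 4 of the 13 (32% of all windows). The left part of the RE1 element, CAGCACC, lay in 1 member window (6.16% of all). That window belongs to the second start of *RCOR3* and lies within the annotated gene. The right part, GGACAG, lay in 4 (17.2% of all), including that of *RCOR1*. The AP-1 letters TGANTCA lay in 1, at the second start of *REST* (6.57% of all), and the E-box CAGGTG in 0 (17.5% of all). Each motif was read on both strands over the full windows, which were not trimmed at exons. These matches describe the sequence and no binding was measured here.

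The demethylase pair moved upward in both lines, with *KDM1B* far ahead. *KDM1A* (ENSG00000004487.16, chr1:23019443-23083689 in GRCh38, plus strand) stood at 197.3 and 196.9 CPM in the DMSO libraries of 451Lu-R and at 262.6 and 259.5 CPM in the corin libraries. In 1205Lu-R it stood at 106.6 and 113.1 CPM with DMSO and at 143.9 and 154.5 CPM with corin. The groups did not overlap in either line. *KDM1A* rose 1.30-fold in 451Lu-R (log2 0.38 ± 0.03 SE, adjusted p = 2.6e-10), and the 1205Lu-R line gave 1.38-fold (log2 0.46 ± 0.04, adjusted p = 2.9e-09). Since these are bulk libraries, a change in the number of cells with a transcript and a change in its amount per cell cannot be told apart.

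*KDM1B* (ENSG00000165097.16, chr6:18155329-18223854, plus strand), the demethylase outside the RCOR-bound complex, stood at 46.8 and 51.9 CPM with DMSO and at 145.6 and 145.1 CPM with corin in 451Lu-R. The 1205Lu-R libraries began lower, at 15.7 and 15.6 CPM, and reached 49.2 and 50.4 CPM. The rise was 2.91-fold in 451Lu-R (log2 1.54 ± 0.05, adjusted p = 4.2e-16) and 3.21-fold in 1205Lu-R (log2 1.68 ± 0.08, adjusted p = 2.4e-14). A larger change was seen in 21.3% of tested genes in 451Lu-R and in 16.2% in 1205Lu-R.

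The balance of the pair shifted toward *KDM1B*. Its estimated counts per count of *KDM1A* went from 0.237 and 0.264 to 0.555 and 0.560 in 451Lu-R, a 2.23-fold increase, and from 0.147 and 0.138 to 0.342 and 0.326 in 1205Lu-R, a 2.34-fold increase. Such a ratio within a library does not depend on how libraries were scaled. Divided by the union of annotated exons, *KDM1B* made up 44.9% ± 1.86 of the pair with DMSO and 64.5% ± 0.14 with corin in 451Lu-R (SD, n = 2), and 31.8% ± 0.98 and 52.1% ± 0.82 in 1205Lu-R. The union of *KDM1A* is 18325 bases against 3085 for its canonical transcript, and by canonical length the share of *KDM1B* went from 14.5% to 27.5% in 451Lu-R and from 8.85% to 18.5% in 1205Lu-R. *KDM1A* thus remained the more abundant of the pair in all 4 groups by canonical length, but not by the union of exons with corin.

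The scaffolds RCOR1, RCOR2 and RCOR3, of which RCOR1 is CoREST itself, did not respond alike. *RCOR1* (ENSG00000089902.10, chr14:102592649-102730561, plus strand) stood at 57.1 and 48.9 CPM with DMSO in 451Lu-R and rose to 98.6 and 91.7 CPM with corin. In 1205Lu-R it went from 30.8 and 35.6 CPM to 66.8 and 62.5 CPM. The increase was 1.77-fold in 451Lu-R (log2 0.82 ± 0.06, adjusted p = 2.7e-10) and 1.964-fold in 1205Lu-R (log2 0.97 ± 0.07, adjusted p = 3.8e-11), with no overlap of the groups.

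*RCOR2* (ENSG00000167771.6, chr11:63911230-63917164, minus strand) is a scaffold known from stem cells and neural progenitors. With DMSO it was nearly silent in 451Lu-R and low in 1205Lu-R, and it was higher with corin in both lines. The DMSO libraries of 451Lu-R held 4 and 3 estimated counts of it, the corin libraries 156 and 125. Those of 1205Lu-R held 15 and 12 without the drug, then 150 and 149. Relative to the library totals, the summed counts were 37.9 times higher in 451Lu-R (exact 95% interval 18.1 to 95.1) and 11.6 times higher in 1205Lu-R (7.84 to 18.0), where the interval covers counting error only. In 1205Lu-R, where *RCOR2* passed the filter with DMSO, the adjusted p was 1.9e-12. It was the member with the largest change there, and 5.67% of tested genes changed more. In 451Lu-R it entered the test through corin alone. Its rise in that line follows in part from the filter, so no p-value or rank is given for it.

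*RCOR3* (ENSG00000117625.13, chr1:211258377-211316385, plus strand), whose protein has been described to bind KDM1A while aiding its activity less, stood at 13.8 and 15.3 CPM with DMSO and at 20.9 and 22.8 CPM with corin in 451Lu-R. That is a 1.48-fold rise (log2 0.56 ± 0.10, adjusted p = 6.5e-05). In 1205Lu-R it stood at 16.8 and 17.5 CPM with DMSO and 18.1 and 19.6 CPM with corin, a log2 difference of 0.15 ± 0.11 that missed the threshold (adjusted p = 0.19, approximate 95% interval from the SE of -0.05 to 0.36).

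Among the scaffolds the share of *RCOR2* grew. By the union of exons it was 1.03% ± 0.04 of the family with DMSO and 19.7% ± 0.09 with corin in 451Lu-R. For 1205Lu-R it was 5.56% ± 1.11 and 27.2% ± 1.67 (SD, n = 2). *RCOR1* remained the main scaffold, at 83.2% and 69.4% in 451Lu-R, against 69.8% and 60.7% in 1205Lu-R. The share of *RCOR3* went from 15.7% to 10.9% and from 24.6% to 12.1%. By canonical length *RCOR1* held 55.3% to 73.1% in the 4 groups, and *RCOR2* reached 17.6% with corin in 451Lu-R and 24.0% in 1205Lu-R. In counts, *RCOR2* per *RCOR1* went from 0.00614 and 0.00602 to 0.139 and 0.141 in 451Lu-R and from 0.0457 and 0.0329 to 0.230 and 0.210 in 1205Lu-R.

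**Figure D2:**
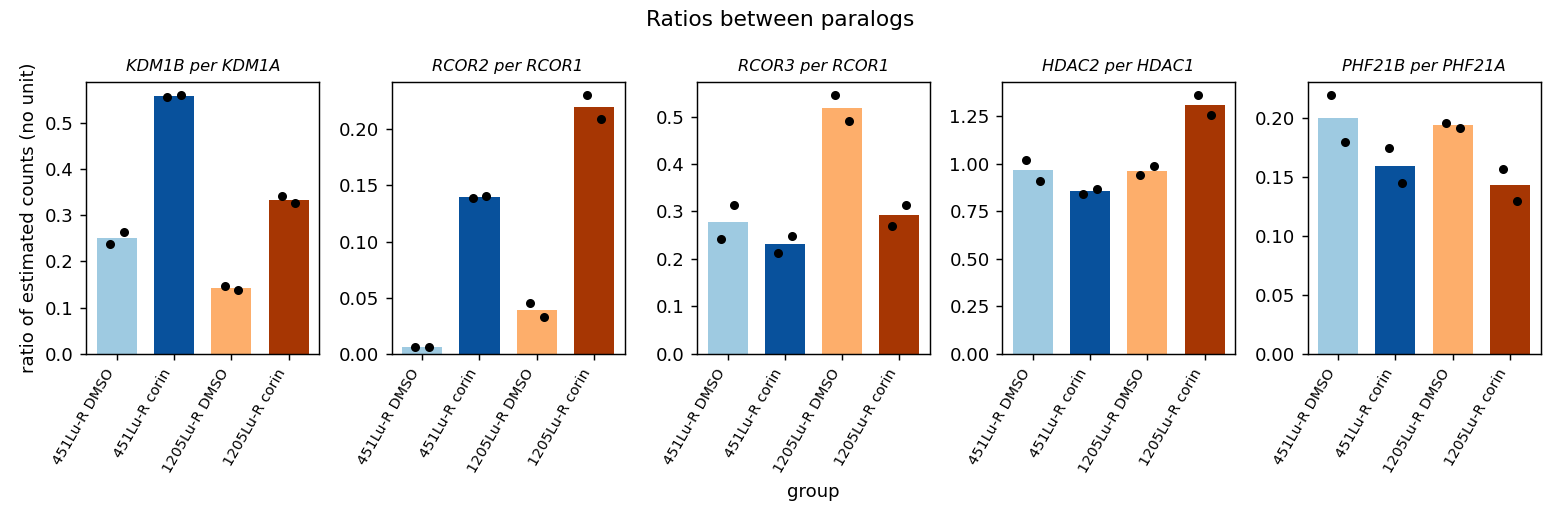
Ratios of estimated counts between paralogs within each library. Bars are the means of 2 libraries, points are the libraries, and each panel has its own linear axis from 0. The ratios of KDM1B to KDM1A and of RCOR2 to RCOR1 were higher in each corin library than in each DMSO library of the same line. That of HDAC2 to HDAC1 was higher in each corin library than in each DMSO library in 1205Lu-R, and lower in each in 451Lu-R. The ratio of PHF21B to PHF21A was lower in each corin library than in each DMSO library of the same line.

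The deacetylases HDAC1 and HDAC2, close paralogs that the complex uses in either form, separated between the lines. *HDAC1* (ENSG00000116478.12, chr1:32292083-32333635, plus strand) stood at 158.9 and 165.2 CPM with DMSO in 451Lu-R and at 239.9 and 235.6 CPM with corin, a 1.45-fold rise (log2 0.53 ± 0.03, adjusted p = 9.4e-12). In 1205Lu-R it stood at 147.0 and 135.8 CPM with DMSO and at 125.8 and 136.1 CPM with corin. There the groups overlapped and the log2 difference of -0.09 ± 0.04 missed the threshold (adjusted p = 0.057). Without the second DMSO library this value was -0.17 (adjusted p = 0.0023), and without the second corin library it was -0.16 (adjusted p = 0.0042), so in each case the call was made. It was also made with no filter on low counts and with all 8 libraries in one fit, and the log2 value was -0.02 when libraries were scaled by their totals alone. The processed pseudogenes *HDAC1P1* and *HDAC1P2* had at most 2 counts in any library.

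*HDAC2* (ENSG00000196591.12, chr6:113933028-114011308, minus strand) went from 162.4 and 150.5 CPM to 202.2 and 204.3 CPM in 451Lu-R and from 138.0 and 134.5 CPM to 171.1 and 170.9 CPM in 1205Lu-R. It rose 1.28-fold (log2 0.35 ± 0.04, adjusted p = 2.2e-08) and 1.27-fold (log2 0.34 ± 0.04, adjusted p = 1.8e-08). The share of *HDAC1* in the pair, by the union of exons, was 80.0% ± 1.30 with DMSO and 81.9% ± 0.30 with corin in 451Lu-R, against 80.0% ± 0.59 and 74.7% ± 1.07 in 1205Lu-R. The counts of *HDAC2* per *HDAC1* in 1205Lu-R went from 0.939 and 0.990 to 1.36 and 1.26.

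Outside the complex, the class I deacetylase *HDAC3*, the enzyme of the NCoR complex, rose in both lines, from 51.9 and 50.7 to 75.2 and 80.7 CPM in 451Lu-R and from 72.0 and 72.6 to 115.7 and 117.3 CPM in 1205Lu-R (1.49-fold, adjusted p = 2.2e-08, and 1.63-fold, adjusted p = 2.2e-12). *HDAC8*, the class I deacetylase that acts on cohesin, ranged from 8.05 to 10.4 CPM in 451Lu-R and from 9.58 to 11.5 CPM in 1205Lu-R, with log2 differences of 0.18 ± 0.15 and 0.13 ± 0.14 that missed the threshold (adjusted p = 0.28 and 0.41).

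Of the accessory subunits, PHF21A (BHC80), which reads the unmethylated tail of histone H3, was the flattest member. *PHF21A* (ENSG00000135365.15, chr11:45929319-46121454, minus strand) stood at 13.2 and 14.7 CPM with DMSO and at 15.1 and 14.99 CPM with corin in 451Lu-R. In the 1205Lu-R line it stood at 26.3 and 26.5 CPM with DMSO and at 25.6 and 27.2 CPM with corin. The log2 differences were 0.09 ± 0.11 (adjusted p = 0.48, approximate 95% interval -0.14 to 0.31) and 0.02 ± 0.09 (adjusted p = 0.87, interval -0.15 to 0.18). Its paralog *PHF21B* was low, at 2.17 to 2.89 CPM in 451Lu-R and 3.52 to 5.16 CPM in 1205Lu-R, and its log2 differences of -0.22 ± 0.29 and -0.44 ± 0.22 missed the threshold (adjusted p = 0.49 and 0.071).

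*HMG20B* (BRAF35; ENSG00000064961.19, chr19:3572777-3579088, plus strand), an HMG-box subunit that binds DNA, fell in both lines and much further in 1205Lu-R. It went from 160.7 and 157.2 CPM to 143.2 and 148.7 CPM in 451Lu-R and from 150.2 and 142.7 CPM to 69.6 and 74.8 CPM in 1205Lu-R. The log2 change was -0.15 ± 0.04 in 451Lu-R (adjusted p = 0.00095) and reached -1.004 ± 0.04 in 1205Lu-R (adjusted p = 6.3e-15), where the level came to 0.499-fold of DMSO. In 451Lu-R the call was lost with DESeq2 (log2 -0.13, adjusted p = 0.078). *HMG20B* overlaps the gene *MFSD12* on the opposite strand, and whether the libraries kept strand is not given in the sources used here. *MFSD12* went from 207.8 ± 10.1 to 482.9 ± 0.86 CPM in 451Lu-R and from 281.3 ± 9.19 to 292.3 ± 1.20 CPM in 1205Lu-R (SD, n = 2). Its mean did not fall in either line, but the responses of both genes were lower in 1205Lu-R than in 451Lu-R. Whether reads from the overlap entered the counts of *HMG20B* was not tested.

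*REST* (ENSG00000084093.17, chr4:56907876-56966808, plus strand), the zinc finger repressor of neuronal genes, fell in both lines. It stood at 30.9 and 35.7 CPM with DMSO and at 22.2 and 26.0 CPM with corin in 451Lu-R, and at 56.8 and 56.4 CPM with DMSO and 33.5 and 33.2 CPM with corin in 1205Lu-R. Each corin library lay below each DMSO library of its line. The level with corin was 0.713-fold of DMSO in 451Lu-R (log2 -0.49 ± 0.09, adjusted p = 9.8e-05) and 0.594-fold in 1205Lu-R (log2 -0.75 ± 0.07, adjusted p = 7.8e-10). *NOA1*, which overlaps the locus on the opposite strand, changed in the same direction in 451Lu-R (log2 -0.34 ± 0.08) and in the opposite one in 1205Lu-R (log2 0.73 ± 0.09). No exon base of the canonical transcript of *REST* or *HMG20B* is shared with the canonical transcript of a protein-coding neighbour. Other transcripts of the genes were not compared.

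**Figure D3:**
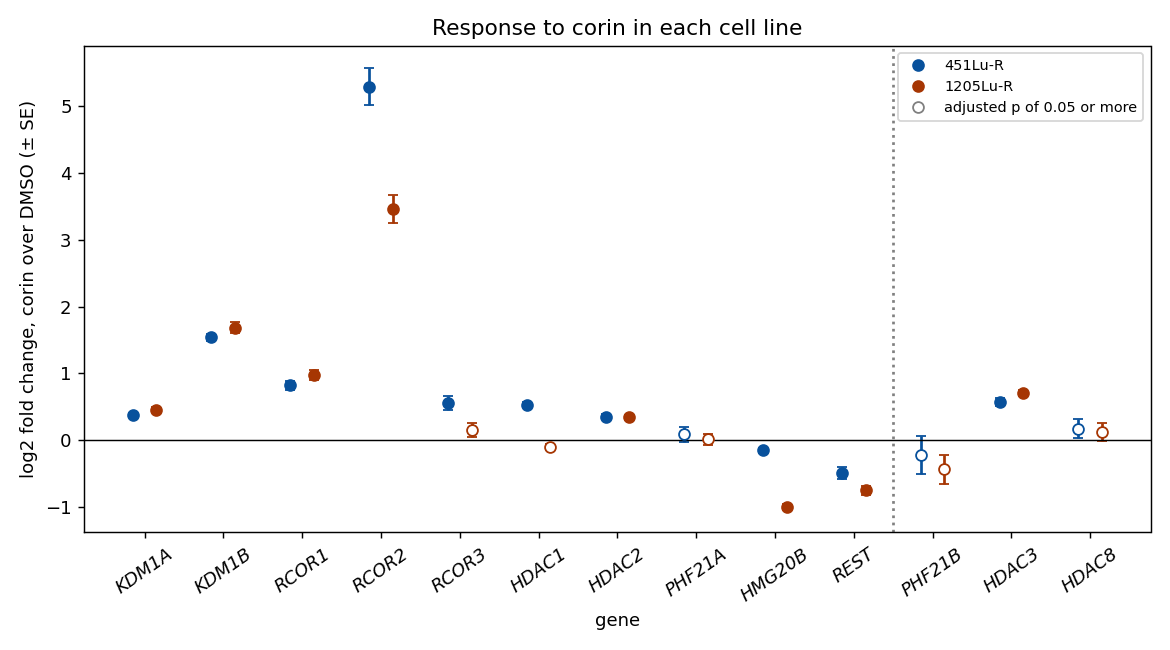
Log2 fold change of corin over DMSO with its SE, in 451Lu-R (blue) and 1205Lu-R (brown). Open symbols are genes at an adjusted p of 0.05 or more, and the dotted line separates the 10 members from PHF21B, HDAC3 and HDAC8. RCOR2 changed most in 1205Lu-R, by 3.46. Its value of 5.29 in 451Lu-R rests on 7 summed counts with DMSO, and it entered that test through corin alone. HDAC1 and HMG20B lay farther apart between the lines than their errors.

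The response itself was compared between the lines by an interaction term over the 8 libraries, for which 49.7% of 16062 tested genes passed. Of the 10 members 5 passed, all with a lower value in 1205Lu-R. *HMG20B* differed by -0.89 ± 0.06 (1205Lu-R minus 451Lu-R, log2; adjusted p = 8.4e-11) and *HDAC1* by -0.67 ± 0.06 (adjusted p = 7.4e-09). *RCOR2* differed by -1.87 ± 0.51 (adjusted p = 0.0044), *RCOR3* by -0.45 ± 0.14 (adjusted p = 0.013) and *REST* by -0.30 ± 0.12 (adjusted p = 0.037). *HMG20B*, *HDAC1* and *RCOR2* passed under all 14 alternatives that were fitted, while *RCOR3* passed under 9 and *REST* under 6. The *REST* value came to -0.18 without the second corin library of 451Lu-R (adjusted p = 0.31), to -0.21 without the first DMSO library of 451Lu-R (adjusted p = 0.19) and to -0.09 when libraries were scaled by their totals alone (adjusted p = 0.56).

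That scaling moved the median of all genes by 0.21 (log2) in the interaction and by -0.11 between the lines with DMSO, and by less than 0.1 elsewhere. It turned the count of members that passed from 0 higher and 5 lower to 4 higher and 3 lower, and the share of higher values among all calls from 45.4% to 64.0%. *KDM1A*, *KDM1B*, *RCOR1* and *HDAC2* were the 4 members that were higher under it. By TMM their differences were 0.04 ± 0.06, 0.10 ± 0.10, 0.12 ± 0.10 and -0.05 ± 0.06, with adjusted p of 0.62, 0.43, 0.39 and 0.50, so a difference in their response was not detectable by that scaling. For *KDM1A* the approximate 95% interval was -0.07 to 0.15.

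Without corin, the lines already differed in most members, as they did in most genes. With DMSO 82.5% of 14104 tested genes differed between 1205Lu-R and 451Lu-R, against 9 of 10 members, 3 higher and 6 lower in 1205Lu-R. The count is near the share of all genes, so it says nothing particular of the members. These comparisons use the same libraries as the corin comparisons above. *KDM1B* was 3.18-fold lower (log2 -1.67 ± 0.09, adjusted p = 5.1e-15), *KDM1A* 1.82-fold lower (log2 -0.86 ± 0.04, adjusted p = 2.7e-16) and *RCOR1* 1.62-fold lower (log2 -0.70 ± 0.08, adjusted p = 1.8e-08) in 1205Lu-R. *HDAC1*, *HDAC2* and *HMG20B* were lower by smaller amounts, with log2 differences of -0.21, -0.22 and -0.14. *HMG20B* lost the call with DESeq2 (adjusted p = 0.089) and without the second DMSO library of 1205Lu-R (adjusted p = 0.081).

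*PHF21A* was 1.87-fold higher in 1205Lu-R (log2 0.90 ± 0.10, adjusted p = 1.3e-08) and *REST* 1.69-fold higher (log2 0.75 ± 0.07, adjusted p = 6.1e-10). *RCOR2* was higher too (log2 1.94 ± 0.54, adjusted p = 0.0020) on 27 summed counts against 7, and lost the call with DESeq2 (adjusted p = 0.061). *RCOR3* did not pass (log2 0.22 ± 0.11, adjusted p = 0.081). *PHF21B* (log2 0.86 ± 0.23; adjusted p = 0.052 with DESeq2) and *HDAC3* (log2 0.47 ± 0.06) were higher.

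Between the corin libraries of the 2 lines 79.2% of 15363 tested genes differed, against 9 of 10 members, 2 higher and 7 lower in 1205Lu-R, again a count near the share of all genes. *KDM1B* (log2 -1.55 ± 0.04), *HMG20B* (-1.02 ± 0.05), *HDAC1* (-0.86 ± 0.04), *KDM1A* (-0.81 ± 0.04) and *RCOR1* (-0.57 ± 0.05) were the lower ones with the largest differences. *PHF21A* (0.80 ± 0.09) and *REST* (0.47 ± 0.08) remained higher in 1205Lu-R. *RCOR2*, which had differed with DMSO, stood at 13.7 and 12.9 CPM in 451Lu-R and 15.4 and 13.1 CPM in 1205Lu-R, where the groups overlapped (log2 0.08 ± 0.12, adjusted p = 0.55, approximate 95% interval -0.16 to 0.32). *RCOR3* passed narrowly (log2 -0.21 ± 0.09, adjusted p = 0.048) and lost the call under 8 of 11 alternatives.

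Levels were ordered between genes only after division by the canonical transcript length, rescaled to a total of 1000000 in each library. With DMSO in 451Lu-R, *HMG20B* was highest at 226 length-scaled units, followed by *HDAC1* at 173, *KDM1A* at 144, *HDAC2* at 36.3, *KDM1B* at 24.5, *RCOR1* at 20.8, *REST* at 10.3, *RCOR3* at 7.36, *PHF21A* at 4.23 and *RCOR2* at 0.250. No neighbours in that order overlapped in their libraries, which covers the spread of libraries only, and the order itself depends on the length used. In these libraries *HDAC1* made up 82.6% of its pair with *HDAC2* by canonical length and 50.9% by counts without length. In 1205Lu-R with DMSO the first 4 places were the same, *REST* at 17.9 stood above *RCOR1* at 13.3, and *KDM1B* at 7.95 was ninth.

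With corin the order changed along its length, the first place included. In 451Lu-R *HDAC1* at 227 was above *HMG20B* at 186, *KDM1B* at 64.8 was above *HDAC2* at 42.2, and *RCOR2* at 9.24 was above *REST* at 6.68. *RCOR3* and *RCOR2* were the pair of neighbours that overlapped there. In 1205Lu-R *HDAC1* at 148 was followed by *KDM1A* at 116 and *HMG20B* at 109, which overlapped, and the neighbours *RCOR1* and *KDM1B* and the neighbours *RCOR2* and *REST* overlapped as well.

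The genes whose pattern over the 8 libraries was most like that of a member were found by Pearson's r of log2(CPM + 1) among 14434 genes with a mean of at least 1 CPM. For *KDM1A* they were *TTC3* (r = 0.999), *CD320* (0.998) and *ASAP3* (0.998), for *RCOR1* they were *ARHGAP44* (0.995) and *KCNH3* (0.994), and for *REST* they were *FOXJ2* (0.995), *APTX* (0.991) and *SF3B4* (0.990). An r above 0.9 was reached by 1476, 954 and 1059 genes, and the 8 libraries form only 4 groups, so these are descriptions. Among members, *RCOR1* was most like *HDAC2* (0.981) and *KDM1B* (0.967), and *REST* ran opposite to *KDM1B* (-0.969) and *RCOR1* (-0.966).

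Other proteins that bind CoREST moved in both directions. Of 9 listed, 4 were called higher and 4 lower in 451Lu-R, 4 higher and 3 lower in 1205Lu-R (medians -0.22 and 0.09). All 9 reached the filter's minimum in both DMSO libraries of each line. Of all such genes 35.2% rose and 43.9% fell in 451Lu-R, against 34.4% and 43.4% in 1205Lu-R. The counts are near these shares, so they say nothing particular of the list. In 451Lu-R *GSE1*, a partner of the complex in blood and cancer cells, rose most (log2 2.51 ± 0.10, from 7.47 to 43.4 CPM), followed by *ZNF217* (1.02 ± 0.06) and *ZMYM2* (0.65 ± 0.06), while *ZMYM3* (-1.05 ± 0.10), *RREB1* (-0.90 ± 0.08) and the corepressor *CTBP1* (-0.75 ± 0.05) fell. In 1205Lu-R *ZNF516* rose most (1.16 ± 0.10), *ZMYM2* (0.41 ± 0.08) and *GSE1* (0.39 ± 0.07) rose, and *CTBP2* (-0.91 ± 0.05), *CTBP1* (-0.83 ± 0.04) and *RREB1* (-0.53 ± 0.11) fell.

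The other complexes that hold HDAC1 and HDAC2 were counted in the same way. Of 13 NuRD genes, of which *CHD5* entered the 451Lu-R test through corin alone, 11 fell and 2 rose in the 451Lu-R line, while the 1205Lu-R line had 12 fallen and 1 risen (medians -0.67 and -0.72). Of all tested genes, 38.6% fell and 41.3% rose in 451Lu-R, against 37.8% and 40.4% in 1205Lu-R. *CDK2AP1* (-1.49 ± 0.04), *MTA1* (-1.43 ± 0.08) and *MBD3* (-1.10 ± 0.05) fell most in 451Lu-R, and *MTA2* (-1.56 ± 0.05), *MBD3* (-1.28 ± 0.04) and *CHD3* (-1.28 ± 0.04), a remodeling ATPase, fell most in 1205Lu-R. *CHD5*, the neuronal form of that ATPase, rose in both lines, from 2 to 216 summed counts in 451Lu-R (102 times, exact 95% interval 27.9 to 847) and from 1.005 to 3.43 CPM in 1205Lu-R (log2 1.77 ± 0.34). *GATAD2B* rose in 451Lu-R (0.27 ± 0.07) but fell in the other line (-0.18 ± 0.07).

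Of 16 SIN3 genes, 2 were called higher and 6 lower in 451Lu-R, 3 higher and 8 lower in 1205Lu-R (medians -0.07 and -0.12). All 16 reached the filter's minimum in both DMSO libraries of each line. Of all such genes 35.2% rose and 43.9% fell in 451Lu-R, against 34.4% and 43.4% in 1205Lu-R. The share called lower was thus not far from that of all such genes in either line. The histone chaperone *RBBP4*, which NuRD shares, fell by 1.09 and 1.01 on the log2 scale and *BRMS1* by 0.88 and 1.23. *SAP30* fell in both lines (-0.87 ± 0.09 and -0.58 ± 0.13), and the scaffold *SIN3A* fell in 1205Lu-R (-0.98 ± 0.07) and was not called in 451Lu-R (-0.07 ± 0.06). *ING1*, a reader of methylated histone H3, rose in both (0.66 ± 0.09 and 0.68 ± 0.10), with *SAP130* in 451Lu-R (0.30 ± 0.07) and *SAP18* (0.33 ± 0.04) and *SAP30L* (0.26 ± 0.08) in 1205Lu-R. The call of *SAP30L* was lost with DESeq2 (adjusted p = 0.082) and without the first DMSO library of that line (adjusted p = 0.081).

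Of 5 listed NCoR genes, which include *HDAC3*, 3 were called higher and 2 lower in 451Lu-R, 2 higher and 3 lower in 1205Lu-R (medians 0.17 and -0.62). All 5 reached the filter's minimum in both DMSO libraries of each line. Of all such genes 35.2% rose and 43.9% fell in 451Lu-R, against 34.4% and 43.4% in 1205Lu-R. *NCOR1* fell in both lines (-0.86 ± 0.04 and -1.06 ± 0.04) as did *TBL1XR1* (-0.69 ± 0.05 and -0.62 ± 0.04). *TBL1X* rose in 451Lu-R (1.16 ± 0.11) but fell in 1205Lu-R (-0.64 ± 0.05). *GPS2* rose in both (0.17 ± 0.05 and 0.51 ± 0.07), and lost the call in 451Lu-R with DESeq2 and with libraries scaled by their totals. Beside the same shares, 2 of 6 tested genes of the MiDAC and MIER complexes were called higher and 3 lower in 451Lu-R. In 1205Lu-R 0 of them were higher and 5 lower (medians -0.10 and -0.45). Their largest changes were a rise of *MIER2* in 451Lu-R (0.70 ± 0.10) and a fall of *DNTTIP1*, the MiDAC scaffold, in 1205Lu-R (-1.30 ± 0.09).

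**Figure D4:**
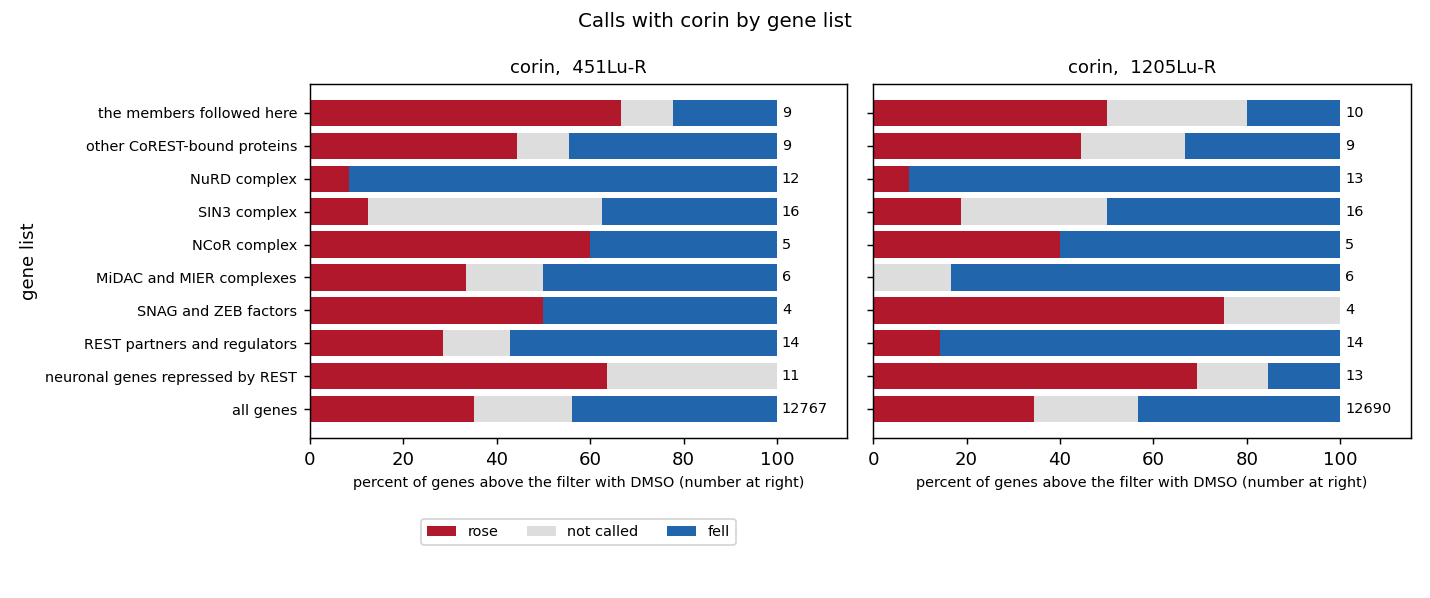
Share of genes that rose, fell or were not called with corin at an adjusted p under 0.05, by gene list and cell line, among genes that reached the filter's minimum in both DMSO libraries, with their number at the right. The NuRD list was mostly lower (11 of 12 and 12 of 13 genes), beside 43.9% and 43.4% of all such genes. The list of neuronal genes repressed by REST had 7 of 11 and 9 of 13 higher, and the members 6 of 9 and 5 of 10, beside 35.2% and 34.4% of all such genes.

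Of the transcription factors that dock KDM1A or CoREST on DNA, several were near 0 with DMSO and had counts with corin. Of 14 measured SNAG and ZEB genes 9 were tested in 451Lu-R, 5 of them through the corin libraries alone, and 8 in 1205Lu-R, 4 of them through corin alone. All of those rose, a direction that the filter itself favours. Of the others, 451Lu-R had 2 that rose and 2 that fell, while 3 of 4 rose in 1205Lu-R. In 451Lu-R *SNAI3* had 0 counts with DMSO and 120 with corin, at least 37.7-fold higher against a floor of 3 counts over the group. *INSM1* went from 2 to 70 summed counts (33.0 times, exact 95% interval 8.81 to 278) and *GFI1* from 3 to 53 (16.7 times, 5.40 to 83.4), both known to hold KDM1A by their SNAG sequence. In 1205Lu-R *INSM1* was at least 14.4-fold higher, *SNAI3* went from 2 to 59 counts (31.0 times, 8.21 to 262), and *INSM2* rose from 0.287 to 2.41 CPM (log2 3.01 ± 0.51). These genes named for each line were among those that entered its test through corin alone. Of those above the filter with DMSO, *SNAI1* rose in both lines, from 15.5 to 77.1 CPM in 451Lu-R and from 31.1 to 191.4 CPM in 1205Lu-R. *ZEB1* rose in 451Lu-R (from 6.47 to 19.8 CPM) and was not called in 1205Lu-R.

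*SNAI2* and *ZEB2*, factors of epithelial to mesenchymal transition that melanocytes also use, fell in 451Lu-R (-1.75 ± 0.04, from 221.1 to 66.7 CPM, and -1.95 ± 0.06, from 143.8 to 37.9 CPM). In 1205Lu-R both rose, *SNAI2* by 1.24 ± 0.05 and *ZEB2* by 0.37 ± 0.12, and the difference in response was 2.95 ± 0.06 for *SNAI2* (adjusted p = 2.9e-19) and 2.29 ± 0.14 for *ZEB2* (adjusted p = 6.1e-12).

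Among neuronal genes that REST is known to repress, those already above the filter with DMSO were more often higher than lower with corin. In 451Lu-R 11 of 28 were above it, of which 7 rose, 0 fell and 4 were not called, and in 1205Lu-R 13 of 28, of which 9 rose, 2 fell and 2 were not called. Of all genes above the filter with DMSO, 35.2% rose and 43.9% fell in 451Lu-R, against 34.4% and 43.4% for 1205Lu-R. A further 16 genes in 451Lu-R and 6 in 1205Lu-R entered the test through corin alone, all of which rose, the direction that the filter favours. The 3 with the largest values in 451Lu-R were among these: the potassium channel *KCNH2* was at least 62.0-fold higher (0 against 197 counts), the growth cone protein *STMN2* at least 60.4-fold (0 against 192) and the vesicle protein *SYT4* at least 43.4-fold (0 against 138). In 1205Lu-R the calcium pump *ATP2B2* was at least 23.5-fold higher (0 against 67 counts). There the muscarinic receptor *CHRM4* rose by 4.72 ± 0.25 on the log2 scale (from 0.627 to 16.6 CPM). Both entered the test through corin alone, so their rise follows in part from the filter. The secreted *VGF*, already above the filter with DMSO in 1205Lu-R, rose by 4.30 ± 0.05 (from 85.6 to 1666 CPM). *UNC13A* (-0.90 ± 0.09) and *L1CAM* (-0.19 ± 0.03) fell there. Whether these genes moved because *REST* or its complex did was not tested.

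Partners and regulators of REST mostly fell in 1205Lu-R and were more mixed in 451Lu-R. Of 14 tested, 4 were called higher and 8 lower in 451Lu-R, 2 higher and 12 lower in 1205Lu-R (medians -0.13 and -0.55). All 14 were above the filter with DMSO. Of all such genes 35.2% rose and 43.9% fell in 451Lu-R, against 34.4% and 43.4% in 1205Lu-R, so the 451Lu-R count was not far from these shares. The phosphatase *CTDSP1*, which stabilises REST and limits polymerase II at neuronal genes, fell in both lines (-1.63 ± 0.09 and -2.10 ± 0.07). Its relative *CTDSPL* rose in 451Lu-R (1.32 ± 0.13) but fell in 1205Lu-R (-1.79 ± 0.07). The H3K9 methyltransferase *EHMT1* (-0.85 ± 0.08 and -0.53 ± 0.08) and the remodeler *SMARCA4* (-0.82 ± 0.04 and -0.75 ± 0.04) fell in both lines. *CDYL*, which links REST to EHMT2, rose in both lines (0.66 ± 0.07 and 0.37 ± 0.08), and *SKP1* of the ubiquitin ligase that degrades REST rose by 0.40 ± 0.03 and 0.11 ± 0.03, where the 1205Lu-R call was lost with no filter on low counts (adjusted p = 0.088) and without the second DMSO library (adjusted p = 0.073).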

How the data were processed

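RNA-Seq of 8 libraries (2 lines, corin or DMSO, 2 each) was analysed. The deposited estimated counts per gene were made by the authors from trimmed paired-end reads quantified with salmon against GENCODE v32 and summed to genes. The submitters' processing notes name Trimmomatic, Salmon and DESeq2, and their versions are not given in the sources used here. Salmon divides reads between near-identical transcripts by estimation, so counts of overlapping or paralogous genes are less certain. Counts were rounded to whole numbers. Genes were filtered with filterByExpr, scaled by TMM and tested 2-sided with edgeR 4.0.16 (glmQLFit and glmQLFTest, R 4.3.3) with Benjamini-Hochberg adjustment over all genes tested. The call was an adjusted p under 0.05, and the SE is the size of the log2 fold change divided by the square root of its F statistic. With 2 libraries against 2, an exact permutation test of 1 gene cannot go below p = 0.33. CPM were TMM-scaled over the 8 libraries. Each library held at least 9516687 estimated counts, and replicates differed beyond sampling noise (chi-square per degree of freedom 1.34 to 1.40). Symbols were matched through GENCODE 44 for 34052 of 34228 genes.

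The members and lists were chosen with earlier results of these data known. Named genes were the members, PHF21B, HDAC3, HDAC8, in each list and line up to 3 genes that rose and 3 that fell most (mean over 1 CPM or more), and the 3 genes most like KDM1A, RCOR1 and REST. A few items that this rule or the lists would name are not reported here, and the list counts leave them out. Some genes stand in more than 1 list. Genes were split by whether both DMSO libraries reached the filter's minimum of 10 counts at the median library size, a split added after the data were seen. MFSD12, NOA1, HDAC1P1 and HDAC1P2 were added for overlap or similarity to a member, and markers for the check of the lines. SNAI1 and ZEB1 were added as list genes above the filter with DMSO. The fit was tested on simulated counts. Alternatives were DESeq2 1.42.0, other scalings and filters, a replicate block, one fit of all libraries, leaving out each library, and stricter calls. Family shares used the union of exons. The canonical transcript length was added after the data were seen. Upstream sequences are from RefSeq. The authors' tables for PLX4032 with corin hold only their log2 fold changes and adjusted p-values and were not used. Figures were drawn with matplotlib 3.10.9.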

Additional observations from a re-analysis of the deposited data

Results flagged for a closer look

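The response to corin differed between the lines by the interaction test (edgeR's quasi-likelihood test with Benjamini-Hochberg adjustment) for 5 members, as log2 values for 1205Lu-R less those for 451Lu-R. *RCOR2* differed by -1.87 (adjusted p = 0.0044) and rose in both lines, from 27 summed counts with DMSO in 1205Lu-R and from 7 in 451Lu-R. *HMG20B* differed by -0.89 (adjusted p = 8.4e-11) and fell in both. *HDAC1* differed by -0.67 (adjusted p = 7.4e-09), with a rise in 451Lu-R and no call in 1205Lu-R. *RCOR3* differed by -0.45 (adjusted p = 0.013) and *REST* by -0.30 (adjusted p = 0.037), and these 2 lost the call under 5 and 8 of the 14 alternatives. Across all genes 49.7% passed this test, so a difference between the lines was common.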

How the results depend on the processing

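The counts of members with a call followed the definition of a call. At 2-fold or more, 2 were higher and 0 lower in 451Lu-R, 2 and 1 for 1205Lu-R, 0 and 1 in the difference of response, 1 and 1 between lines with DMSO, and 0 and 2 with corin. All genes then numbered 5167, 4638, 3019, 5837 and 5909. At 4-fold and an adjusted p under 0.001, 1 member rose in each line and 0 passed otherwise, among 2198, 1858, 893, 2922 and 2611 genes. DESeq2 left 1 member lower in 451Lu-R and 3 in the response difference. Scaling by library totals gave 4 members higher and 3 lower in that difference, with *HDAC2* at 0.16, *PHF21A* at 0.10 and *HDAC8* at 0.12, and *PHF21A* at -0.0092 in 451Lu-R. With no filter on low counts *PHF21A* came to -0.030 in 1205Lu-R. The cause was not tested.

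Leaving out 1 library gave 3 to 5 members lower in the response difference, 3 without the first corin library of 1205Lu-R, the first DMSO or the second corin library of 451Lu-R. Signs turned, each without a call, as these ranges over single libraries left out show: *PHF21A* -0.0042 to 0.16 in 451Lu-R and -0.034 to 0.055 in 1205Lu-R (below 0 without the first DMSO or the second corin library, at -0.0037 for the former), *HDAC8* -0.0078 to 0.23 there, *RCOR2* between lines with corin -0.025 to 0.21 and, in the response difference, *KDM1A* -0.011 to 0.11, *RCOR1* -0.016 to 0.21 and *HDAC8* -0.25 to 0.057. Of the named genes, *SAP30L* and *SKP1* in 1205Lu-R and *GPS2* in 451Lu-R each lost the call under 2 alternatives.

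Shares depended on the length used. The gain of *RCOR2* with corin was 16.7 points in 451Lu-R, against 19.6 in 1205Lu-R, by the longest or the canonical transcript, and 9.74 and 12.04 by counts. *KDM1B* gained 17.4, 15.8 and 12.9 points in 451Lu-R (longest transcript, counts, canonical) and 14.5, 12.5 and 9.65 in 1205Lu-R. By counts *HDAC1* changed by 3.02 and -7.57 points in 451Lu-R and 1205Lu-R and *PHF21A* by 3.74 in the latter.

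Replicate numbers did not pair the samples (correlation of deviations -0.030 and 0.021). With the replicate as a block, 7 members were higher and 2 lower in 451Lu-R, 5 and 3 for 1205Lu-R, where *HDAC1* passed (adjusted p = 0.028), and all genes called numbered 11500 and 11418. At this depth *RCOR2* rested on 7 summed counts with DMSO in 451Lu-R.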
